A study of Mus musculus with 12 samples.

Results

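The genes described here carry proteins through the secretory and endocytic pathways of lung group 2 innate lymphoid cells (ILC2s). Members were taken by symbol from 2 deposited tables of genes that differed between tdTomato+ and tdTomato- ILC2s. A symbol had to begin with a name of the translocon, the COPI or COPII coats, the p24 proteins, the clathrin adaptors, the SNAREs and their binding proteins, the Rab, Arf and Arl GTPases, the Vps proteins or the sorting nexins. This gave 99 of the 3439 listed genes, of which 96 stood in the table of genes lower in tdTomato+ ILC2s and 3 in the table of higher genes.

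All cells came from mice of the genotype TIGIT-Cre-ERT2:Rosa26-LSL-tdTomato that had received papain, a protease allergen, and tamoxifen, and were taken on day 19. The mice used for RNA were male (sex, time and cell number are from the study's methods). In these mice Cre-ERT2 is expressed from the *Tigit* locus, so that tamoxifen marks cells that expressed TIGIT with the red protein tdTomato for good, and tdTomato- ILC2s of the same treatment served as the comparison. The labels list 4 RNA libraries of each population, made from 100 sorted cells each, and 2 ATAC-seq libraries of each, which are not analysed here. The tables hold 1 average level a gene, the average log2 CPM (read counts scaled to the library total) over the libraries of the authors' fit, without columns for individual libraries. The authors' own fold changes, p-values and FDR, which the tables also hold, were not used. The level in each population is therefore not given here, and the spread between libraries and their depth are unknown. No difference was tested, and the direction of a gene was taken only from the table that lists it, under the authors' own scaling. In bulk RNA of sorted cells scaled to a library total, less of a transcript per cell and a change in the rest of the RNA cannot be told apart.

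Of 11 genes taken as ILC2 markers, 11 were listed, all in the table of lower genes, against 13.2% of all annotated protein-coding genes. Their average log2 CPM ran from 6.27 (*Il13*) to 9.98 (*Il1rl1*, the receptor for IL-33). Some of them, such as *Ptprc*, are expressed by other leukocytes too. Of 18 markers of T cells, B cells, macrophages, natural killer cells, epithelium, eosinophils and fibroblasts, 1 was listed, *Cd3g*, also as lower, at 6.12. A gene can be missing from the tables because its level was low or because it did not differ, and the tables do not separate these.

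Secreted proteins such as cytokines enter the endoplasmic reticulum (ER) through the Sec61 translocon, where signal peptidase removes their signal peptide. COPII-coated vesicles carry them to the Golgi, COPI-coated vesicles return material to the ER, and clathrin adaptors sort cargo at the Golgi, at endosomes and at the plasma membrane. Rab and Arf GTPases mark each compartment and recruit its machinery, tethers hold an arriving vesicle, and SNARE proteins fuse it with its target. ILC2s are known for secreting large amounts of type 2 cytokines.

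Short promoter windows, from 250 bases before to 50 bases after an annotated start, were found in RefSeq (GRCm38.p6) for 79 of the 99 members. Of these 79, 5 held TGACGTGG or its reverse complement, the core of the element that the unfolded protein response factors ATF6 and XBP1 are known to bind. They are shown as the members with this motif, which 5.26% of the 76 lower members with a window held, against 0.859% of all protein-coding genes. In only the 200 bases before the start, 2 of the 76 held it (2.63%), against 0.69%. The lower members were *Copb1* and *Copb2*, which encode the beta and beta prime subunits of the COPI coat, *Arf1*, a Golgi GTPase, and *Stx5a*, a SNARE of ER-to-Golgi traffic. The fifth member, *Arfgef3*, is 1 of the 3 in the table of higher genes. Capitals mark the motif, each sequence is read 5′ to 3′ along the gene's strand, and *Arf1* has another annotated start whose window holds the same motif.
Copb1, chr7:114254631-114254930, minus strand: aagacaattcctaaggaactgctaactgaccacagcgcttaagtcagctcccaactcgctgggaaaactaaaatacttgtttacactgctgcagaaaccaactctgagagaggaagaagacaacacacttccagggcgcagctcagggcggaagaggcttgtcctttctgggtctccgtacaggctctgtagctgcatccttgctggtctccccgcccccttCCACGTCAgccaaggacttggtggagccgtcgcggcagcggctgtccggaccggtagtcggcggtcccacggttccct
Copb2, chr9:98563481-98563780, plus strand: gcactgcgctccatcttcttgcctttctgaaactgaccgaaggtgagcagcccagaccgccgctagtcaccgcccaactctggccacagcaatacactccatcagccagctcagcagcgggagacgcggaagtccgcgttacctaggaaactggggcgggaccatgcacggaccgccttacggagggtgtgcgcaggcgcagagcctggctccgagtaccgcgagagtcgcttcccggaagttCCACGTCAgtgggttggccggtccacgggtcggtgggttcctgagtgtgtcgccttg
Arf1, chr11:59228113-59228412, minus strand: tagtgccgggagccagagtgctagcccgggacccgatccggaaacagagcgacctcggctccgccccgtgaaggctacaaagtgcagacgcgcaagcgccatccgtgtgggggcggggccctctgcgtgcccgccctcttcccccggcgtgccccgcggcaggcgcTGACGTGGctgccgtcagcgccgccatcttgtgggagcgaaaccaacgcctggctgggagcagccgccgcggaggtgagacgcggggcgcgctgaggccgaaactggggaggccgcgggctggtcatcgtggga
Stx5a, chr19:8741174-8741473, plus strand: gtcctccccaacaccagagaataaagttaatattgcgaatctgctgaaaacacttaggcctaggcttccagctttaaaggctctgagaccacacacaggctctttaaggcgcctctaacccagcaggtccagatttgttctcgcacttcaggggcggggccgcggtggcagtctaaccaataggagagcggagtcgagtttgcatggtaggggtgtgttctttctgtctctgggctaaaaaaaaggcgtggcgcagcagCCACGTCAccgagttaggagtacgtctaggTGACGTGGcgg
Arfgef3, chr10:18743709-18744008, minus strand: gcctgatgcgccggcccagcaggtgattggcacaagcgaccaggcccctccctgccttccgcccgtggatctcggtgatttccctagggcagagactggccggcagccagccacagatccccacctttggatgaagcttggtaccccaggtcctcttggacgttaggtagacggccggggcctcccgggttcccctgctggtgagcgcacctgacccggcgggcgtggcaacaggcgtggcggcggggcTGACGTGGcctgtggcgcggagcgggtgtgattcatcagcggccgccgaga

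The motif lay at position -28 from the start in *Copb1*, at -7 in *Copb2*, at -84 from the shown start of *Arf1*, at -1 in *Arfgef3*, and at 10 and 40 in *Stx5a*. Positions give the first base of the motif, with -1 just before the start and 1 at it. *Stx5a* was thus the member with 2 copies in its window, 1 on each strand. The copies of *Copb1* and *Copb2* read as the reverse complement, and those of *Arf1* and *Arfgef3* as TGACGTGG. A match is a stretch of letters and no evidence of binding.

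Between the tables, the members were divided more unevenly than the listed genes as a whole. Of the listed members 97.0% were in the table of lower genes, against 84.5% of all listed genes. Of 280 annotated protein-coding genes whose symbol fits the rule, 96 (34.3%) were listed as lower, 3 (1.07%) as higher and 181 in neither table. Over all 22028 annotated protein-coding genes, 13.2% were listed as lower and 2.30% as higher. The background includes genes that ILC2s do not express, and no test of the enrichment was made. Because a table floor on CPM favours long transcripts, the shares were also read by exonic length. Among the 71 matching genes with up to 2707 exonic bases 23.9% were listed as lower, against 5.61% of all protein-coding genes of that length. Among the 70 matching genes with over 6134 bases the share was 37.1%, against 22.8%. In each of the 4 length classes the share was thus above that of all protein-coding genes, and the gap was widest among short genes when taken as a ratio.

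**Figure D1:**
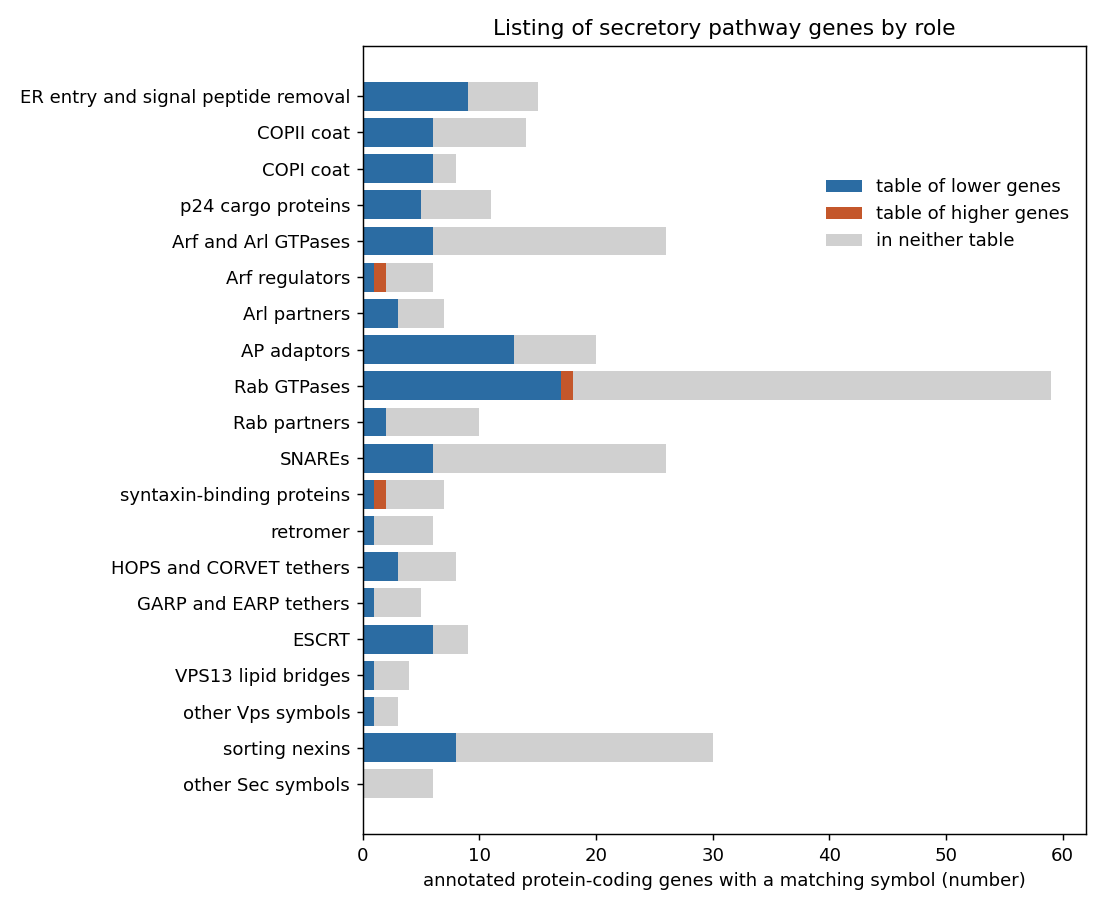
Number of annotated protein-coding genes in each role (horizontal axis), divided into those in the table of lower genes, those in the table of higher genes and those in neither. The COPI coat (6 of 8), the ESCRT genes with a *Vps* symbol (6 of 9), the AP adaptors (13 of 20) and ER entry (9 of 15) had most of their genes in the table of lower genes, whereas most Rab GTPases and sorting nexins were in neither table.

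At the entrance to the pathway, 9 of 15 genes of ER entry and signal peptide removal were listed, all as lower. *Sec61a1*, the channel-forming subunit of the translocon, had an average log2 CPM of 6.06, and *Sec62* and *Sec63*, which assist post-translational import, had 6.26 and 6.56. The signal peptidase genes were listed nearly in full. Its catalytic subunits *Sec11a* and *Sec11c* had average log2 CPM of 5.78 and 6.74, and the accessory subunits *Spcs2* and *Spcs3* had 6.35 and 6.70. *Ssr1* and *Ssr3*, of the translocon-associated TRAP complex, had 6.46 and 6.49. Not listed were *Sec61a2*, *Sec61b*, *Sec61g*, *Spcs1*, *Ssr2* and *Ssr4*, so that each of these complexes was covered only in part. Levels of different genes can be compared only per transcript length, and per kb of exon the group ran from 8.44 CPM (*Ssr1*) to 30.1 CPM (*Spcs3*), with a median of 15.7.

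The COPII coat, which buds from the ER, had 6 of its 14 genes in the table of lower genes. *Sec13* and *Sec31a*, of the outer cage, had average log2 CPM of 5.13 and 6.57. *Sec24b* and *Sec24c*, which select cargo, had 6.56 and 6.50, *Sec16a*, a scaffold of exit sites, had 6.73, and the GTPase gene *Sar1a* had 5.40. On the scale per kb of exon these 6 genes lay close together, from 11.0 (*Sec13*) to 15.7 CPM (*Sec24b*). Of the 3 genes named *Sec23*, the inner-coat partners of *Sec24* and their binding protein, 0 were listed.

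The COPI coat was the role with the largest listed share, 6 of 8 genes, all lower. *Copa* had an average log2 CPM of 7.13, *Copb1* of 6.60, *Copb2* of 6.76, *Copg1* of 6.09, *Copz1* of 5.54 and *Cope* of 5.09. The unlisted genes were *Copg2* and *Copz2*, the alternative paralogs of listed subunits, so that each of the 6 subunits under this rule had a listed gene. Per kb of exon, *Copa*, *Copb1* and *Copb2* stood between 14.9 and 17.3 CPM, and *Copg1*, whose annotated exons cover 11011 bases, was lowest at 6.18 CPM. Per kb of coding sequence *Copg1* had 25.9 CPM against 33.8 CPM for *Copb1*, so the gap was smaller on that scale.

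The p24 proteins, which span the membrane and help to load cargo, had 5 of 11 genes listed, all lower. *Tmed10* had an average log2 CPM of 6.55, *Tmed2* of 6.41, *Tmed5* of 6.26, *Tmed7* of 6.04 and *Tmed9* of 5.58. The highest level per kb of exon in this group was that of *Tmed2* at 33.7 CPM, and the lowest that of *Tmed7* at 7.45 CPM. *Tmed2* and *Tmed10* are known to act in one complex.

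**Figure D2:**
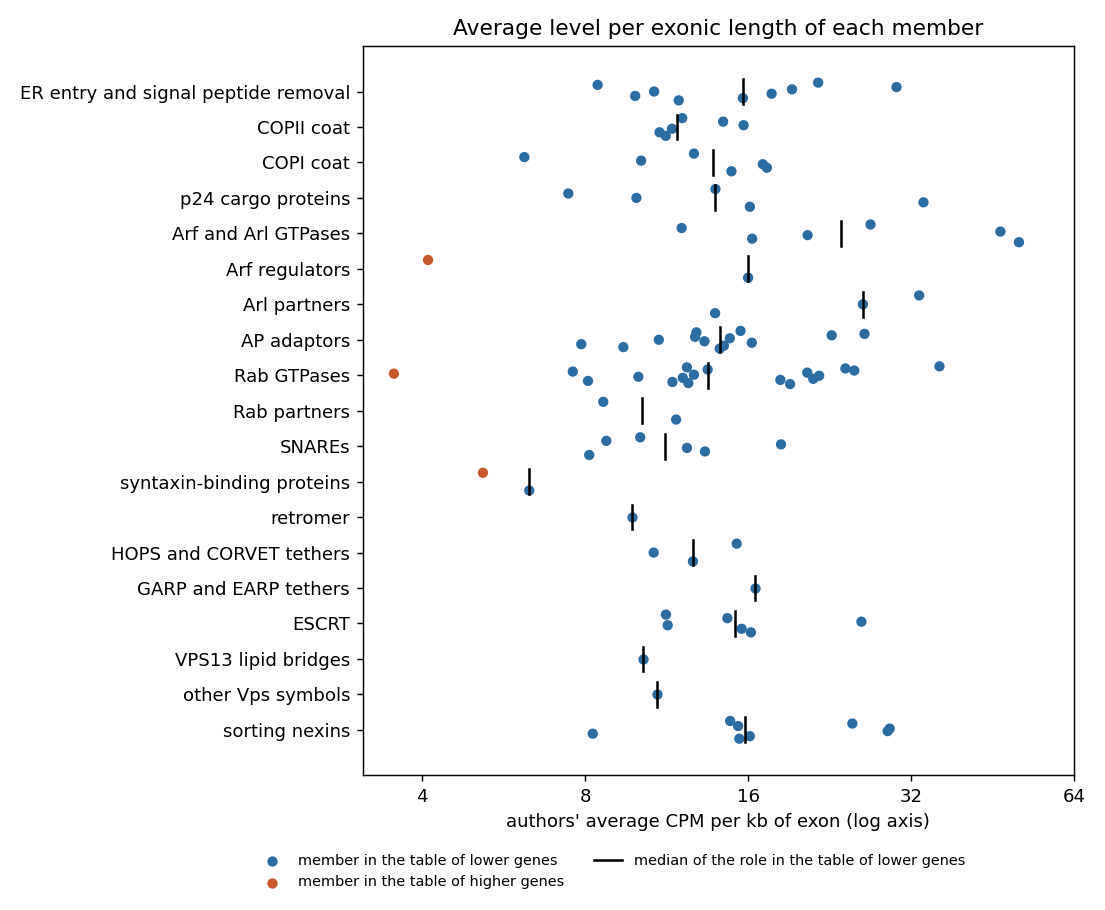
Authors' average CPM per kb of exon (horizontal, log axis) for each of the 99 members by role, with the median of the members in the table of lower genes as a line. The lower members had quartiles of 11.2 and 18.4 CPM per kb, Arf and Arl GTPases reached 50.6, and the 3 members in the table of higher genes lay at 3.55 to 5.18.

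Of 26 Arf and Arl GTPase genes, 6 were listed, all lower. *Arf1* and *Arf6*, which act at the Golgi and at the plasma membrane, had average log2 CPM of 6.73 and 6.17. *Arf3* and *Arf4*, other Golgi Arfs, had 6.30 and 6.21. *Arl5a* had 7.19 and *Arl4c* 6.05. Per kb of exon, *Arf1* at 50.6 CPM and *Arf6* at 46.8 CPM were the highest of all 99 members, above 90.4% and 89.4% of the lower genes of the series. Per kb of coding sequence, however, *Rab8b* at 274 CPM and *Arl5a* at 270 CPM stood above *Arf1* at 194 CPM, so the first place depends on the length used. The Arl partners *Arl2bp*, *Arl6ip1* and *Arl6ip5* were listed as lower at 5.28, 6.02 and 5.58. They match by symbol and are not GTPases.

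Of the clathrin adaptor genes, 13 of 20 were listed, all lower. AP2, the adaptor of endocytosis at the plasma membrane, was complete, with 5 of 5 genes: *Ap2a1* at an average log2 CPM of 5.84, *Ap2a2* at 5.95, *Ap2b1* at 7.02, *Ap2m1* at 5.72 and *Ap2s1* at 5.07. The levels of these 5 ran from 10.9 to 22.8 CPM per kb of exon. AP1, which sorts between the Golgi and endosomes, had 5 of 8 genes listed, and AP3, which sorts to lysosome-related organelles, 3 of 7. *Ap3b1* and *Ap3d1* had average log2 CPM of 6.90 and 6.84, and *Ap1b1* of 6.14. The unlisted AP1 genes were *Ap1g1*, *Ap1m2* and *Ap1s1*, and those of AP3 were *Ap3b2*, *Ap3m1*, *Ap3m2* and *Ap3s2*. Among them *Ap1m2* is known from epithelia and *Ap3b2* and *Ap3m2* from neurons.

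The Rab GTPases were the largest group, with 59 annotated genes, of which 17 were listed as lower, 1 as higher and 41 in neither table. The lower genes covered the main steps of traffic. *Rab1a* and *Rab1b*, of ER-to-Golgi traffic, had average log2 CPM of 6.12 and 5.58, and *Rab2a* and *Rab6a*, of the Golgi, had 5.53 and 5.65. *Rab5a*, *Rab5c* and *Rab21*, of early endosomes, had 5.32, 5.79 and 5.93, and *Rab7*, of late endosomes, had 5.98. The recycling Rabs *Rab4a*, *Rab11a*, *Rab11b* and *Rab14* had 5.18, 5.21, 6.15 and 6.78. For exocytosis, *Rab8a*, *Rab8b* and *Rab10* had 5.85, 7.42 and 6.07, and *Rab27a* and *Rab37*, known from regulated secretion of granules, had 5.28 and 6.08. *Rab8b* had the highest level of the group per kb of exon, 36.1 CPM, and *Rab5a* the lowest of the lower genes, 7.59 CPM. *Rab11fip1* and *Rab3gap1*, an effector and a regulator of Rabs, were listed as lower at 6.99 and 6.66.

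Of 26 SNARE genes 6 were listed, all lower. *Stx5a* and *Sec22b*, of ER-to-Golgi traffic, had average log2 CPM of 5.67 and 5.02. *Stx16* and *Vamp4*, of the trans-Golgi network, had 5.61 and 5.53, *Stx4a*, of the plasma membrane, had 5.44, and *Stx11*, known for cytotoxic granule release, had 5.81. Per length the 6 genes ran from 8.14 CPM per kb of exon (*Sec22b*) to 18.4 (*Stx4a*), with a median of 11.2. Only *Stx4a* lay above the lower members' median of 14.3. *Stxbp5*, the tomosyn gene, which holds back SNARE assembly, was listed as lower at 6.70.

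Among the tethers and coats of the endosome, 6 of the 9 ESCRT genes with a *Vps* symbol were listed as lower. ESCRT genes with other symbols, such as the *Chmp* family, fall outside the rule and were not counted. *Vps4a* and *Vps4b*, the ATPases that take ESCRT filaments apart, had average log2 CPM of 5.21 and 6.65. *Vps28*, *Vps37a* and *Vps37b* of ESCRT-I had 5.22, 6.18 and 6.18, and *Vps36* of ESCRT-II had 5.85. Of the HOPS and CORVET tethers, *Vps16*, *Vps33a* and *Vps41* had 5.56, 5.68 and 6.68, with 5 of the 8 genes not listed. *Vps35*, of the retromer, had 6.44, and *Vps54*, of the GARP tether, had 6.95. These were the single listed genes of groups of 6 and 5 related symbols. *Vps13d*, a long lipid transfer protein, had the highest average log2 CPM of the members, 7.99, on 24771 exonic bases, which comes to 10.2 CPM per kb. *Vps72*, at 5.30, shares the symbol but encodes a chromatin protein.

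The sorting nexins, which bend and sort endosomal membrane, had 8 of 30 genes listed, all lower. *Snx1*, *Snx2*, *Snx5* and *Snx6*, known to work with retromer, were among them, with average log2 CPM of 6.06, 6.29, 6.70 and 5.47. *Snx3*, which works with retromer too, had 5.37, and *Snx4*, *Snx18* and *Snx19* had 5.93, 6.39 and 5.80. Not listed were *Snx27*, another retromer partner, and *Snx32*, a paralog of *Snx5* and *Snx6*, with 20 more nexins. *Snx3* and *Snx2* were highest per kb of exon, at 29.2 and 29.0 CPM. The 5 unlisted genes grouped with retromer under this rule were *Vps26a*, *Vps26b*, *Vps26c*, *Vps29* and *Vps35l*. Of these, *Vps26c* and *Vps35l* were grouped by symbol and are not subunits of retromer itself.

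The 3 members in the table of higher genes were *Arfgef3*, *Rab3c* and *Stxbp5l*, of which *Rab3c* and *Stxbp5l* are known from neurons and *Arfgef3* from endocrine cells. Their average log2 CPM were 5.90, 5.42 and 5.46. All 3 are long genes, with exons of 14579, 12049 and 8521 bases and genomic spans of 162111, 226810 and 270021 bases. The 96 lower members had a median exonic length of 4341 bases (quartiles 3311 and 6358) and a median span of 27833 bases. Of the lower members, *Ap3b1* and *Vps13d* reached over 200 kb, and the spans of the other 94 were below that of each higher member. Per kb of exon the 3 higher members had 4.10, 3.55 and 5.18 CPM, below each of the 96 lower members, whose lowest was *Copg1* at 6.18. Per kb of coding sequence *Rab3c* had 62.5 CPM, above the lower members' median of 59.6, on 684 coding bases, while *Arfgef3* and *Stxbp5l* had 9.18 and 12.4, still below all lower members. The other genes in the table of higher genes resembled these 3 in length, with a median exonic length of 10459 bases and a median level of 4.55 CPM per kb.

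**Figure D3:**
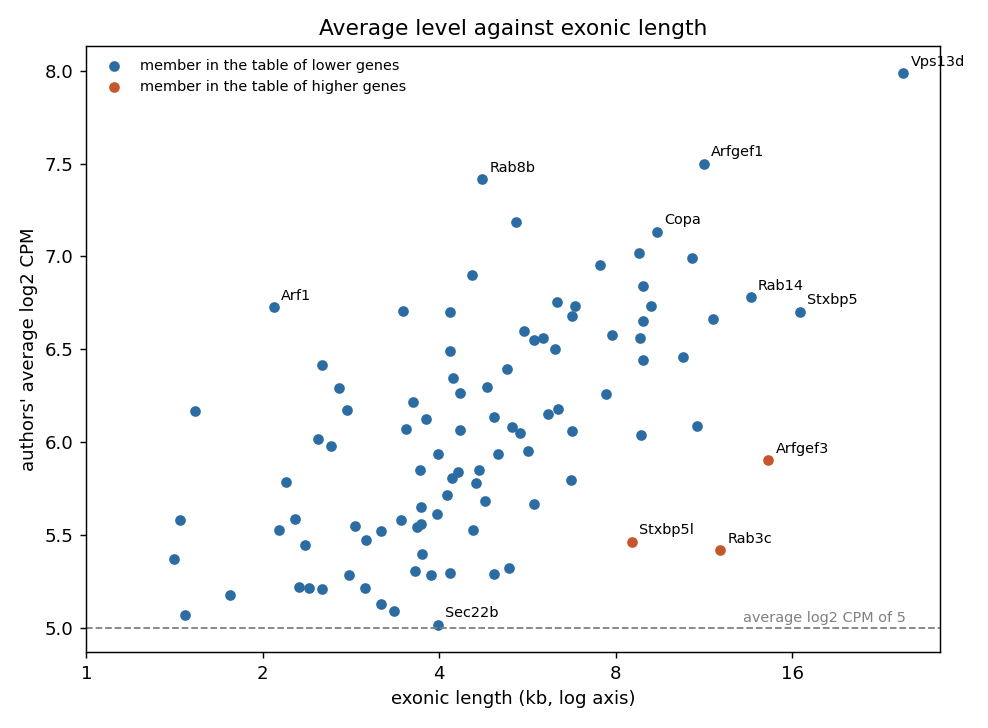
Authors' average log2 CPM (vertical) against exonic length in kb (horizontal, log axis) for the 99 members, with the tables' floor as a dashed line. The members in the table of higher genes, *Arfgef3*, *Rab3c* and *Stxbp5l*, lie below lower members of the same length, at 5.42 to 5.90.

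Across the 96 lower members the average log2 CPM rose with exonic length, with a Spearman's rho of 0.65 across genes, and 0.41 across the other 2810 lower genes where length was known for 2809. The genes share their libraries and a floor on the average, so that no p-value is given. The median average log2 CPM of the lower members was 6.06, against 6.41 for the other lower genes. The medians per kb of exon were 14.3 and 15.5 CPM. Per kb of coding sequence they were 59.6 and 50.8 CPM, so which group had the higher median turned with the length used. The upper quartile turned too. Per kb of exon it was 18.4 CPM for the members and 25.9 CPM for the other lower genes. Per kb of coding sequence it was 100 and 88.4 CPM. The highest level per kb of exon was 50.6 CPM among the members and 2905 CPM among the other lower genes, a far larger set.

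In 15 sets of 2 paralogs, chosen by hand, both genes were listed, and their average levels were compared per length. Other listed paralogs were not compared. *Rab8b* exceeded *Rab8a* by 2.93-fold per kb of exon and 2.96-fold per kb of coding sequence. *Arf1* exceeded *Arf3* by 3.11-fold and 1.35-fold on these scales, and *Rab5c* exceeded *Rab5a* by 3.31-fold and 1.27-fold. *Snx5* exceeded *Snx6* by 1.68-fold and 2.35-fold. In 10 sets the order was the same on both scales, and in 5 (*Rab1a* and *Rab1b*, *Rab11a* and *Rab11b*, *Ap2a1* and *Ap2a2*, *Vps4a* and *Vps4b*, *Sec24b* and *Sec24c*) it turned. Reads of close paralogs can be divided in counting, so these ratios are uncertain, and without replicate values no error can be given. In 2 sets the paralogs were in opposite tables. *Arfgef1*, which activates Arf GTPases at the Golgi, was listed as lower at an average log2 CPM of 7.50 and *Arfgef3* as higher at 5.90, a 3.90-fold difference in level per kb of exon. *Stxbp5* was listed as lower and *Stxbp5l* as higher, with 6.31 and 5.18 CPM per kb.

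**Figure D4:**
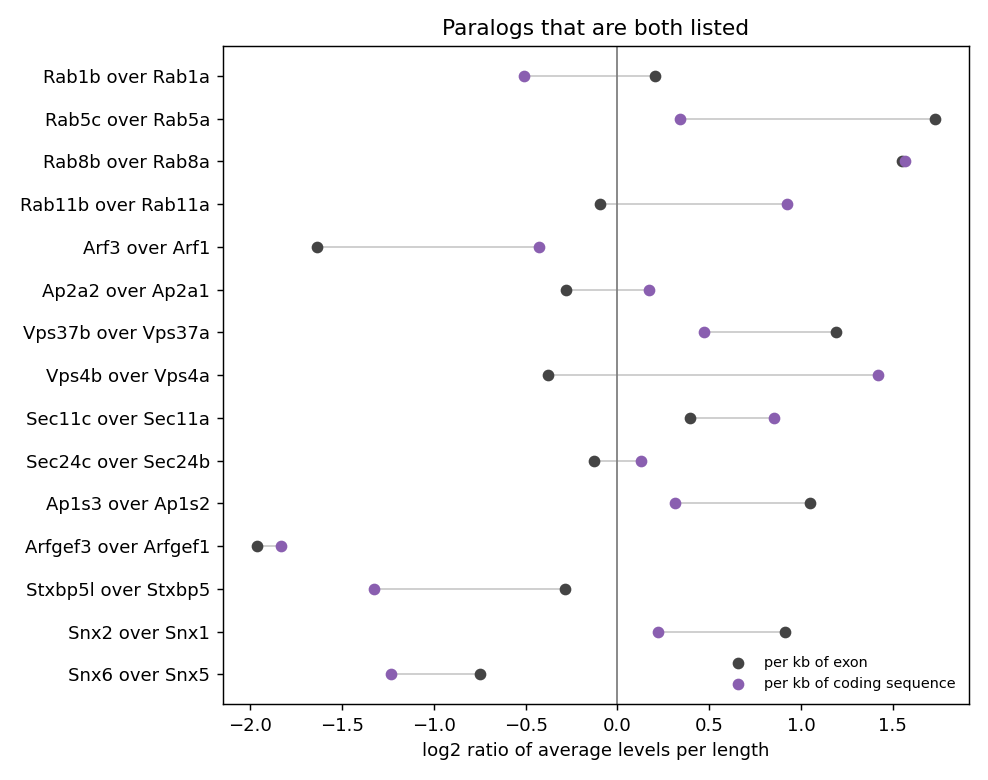
Log2 ratio of the average levels of 2 listed paralogs (horizontal) per kb of exon and per kb of coding sequence, 1 row for each of 15 sets chosen by hand. *Rab8b* and *Rab8a* gave nearly the same ratio on both scales, and *Vps4b* over *Vps4a* turned from 0.770-fold to 2.68-fold.

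The promoters of the lower members had features in common that the symbols did not use. Of the 76 lower members with a window, 66 (86.8%) had a GC content over 50% with an observed to expected CpG ratio over 0.6, the usual signs of a CpG island. The share was 76.5% of the 2212 other lower genes with a window, 36.6% of 383 other higher genes and 47.2% of 16522 protein-coding genes. The median GC content was 63.3% for the lower members and 57.0% for all protein-coding genes. Of the 3 members in the table of higher genes, 1 met these limits. CpG islands are common at genes that most cells express.

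Of 8 motifs searched on both strands, TGACGTGG was in 4 of 76 lower members (5.26%), in 0.995% of other lower genes and in 0.859% of all protein-coding genes. The E-box CACGTG, which the lysosome and stress factors TFEB and TFE3 bind among others, was in 14 (18.4%), against 12.1% and 9.18%. The ETS motif CCGGAAGT was in 8 (10.5%), against 9.49% and 5.94%, and the YY1 motif GCCATNTT in 11 (14.5%), against 12.1% and 7.59%. CCAAT, bound by NF-Y, was in 33 (43.4%), against 41.4% and 42.1%. The GATA motif AGATAA was in 6 (7.89%), against 7.19% and 11.0%, and the cyclic AMP response element TGACGTCA, which shares 6 letters with TGACGTGG, in 3 (3.95%), against 3.57% and 2.64%. The long ER stress response element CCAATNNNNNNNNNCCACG, which contains CCAAT, was in 0 of 76, 0.316% and 0.169%. The largest ratio to the other lower genes was that of TGACGTGG, which rests on 4 genes, among them 2 of the 6 COPI genes. The 3 members in the table of higher genes all held CCAAT, and 1 of them held TGACGTGG. Of these 3, only 1 held CCAAT and 0 held TGACGTGG in the 200 bases before the start. With only the 200 bases before the start, the YY1 motif was in 5.26% of lower members, 4.66% of other lower genes and 3.35% of all protein-coding genes. The GATA motif was then in 3.95% of lower members, 4.75% of other lower genes and 7.77% of all protein-coding genes, and the E-box in 17.1% of lower members, 9.18% of other lower genes and 6.88% of all protein-coding genes.

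**Figure D5:**
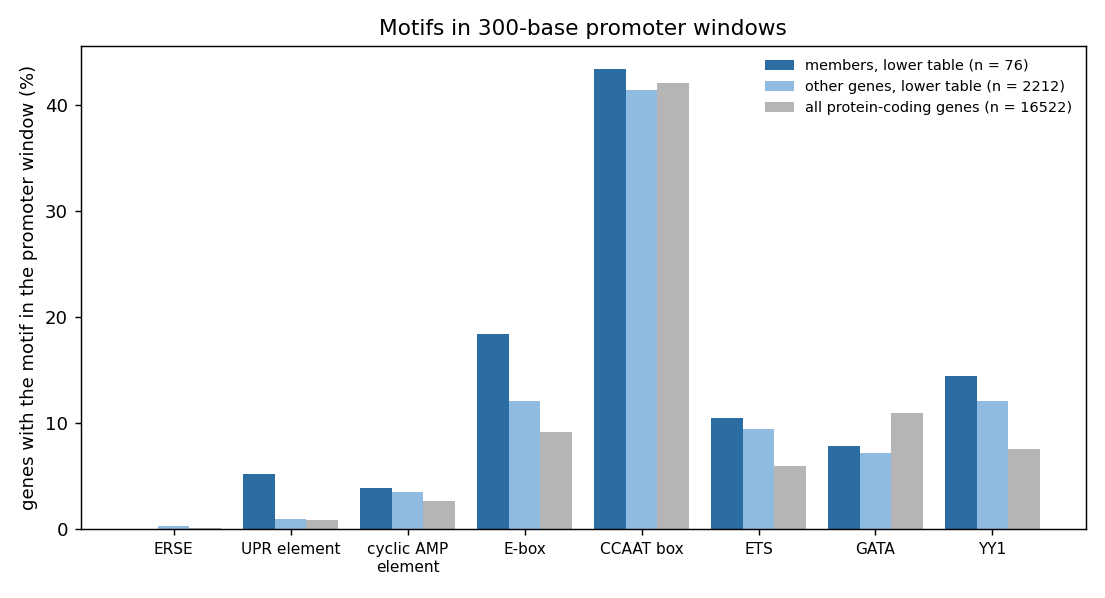
Percentage of genes with each motif in the promoter window (vertical) for the 76 lower members, 2212 other lower genes and 16522 protein-coding genes. ERSE is the ER stress response element and UPR element is TGACGTGG. The lower members had 5.26% for the UPR element, 18.4% for the E-box and 14.5% for YY1, each above all protein-coding genes, and 43.4% for the CCAAT box, near the other sets.

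Genes of the pathway outside the members were read from a list of 87 symbols. Of these 38 were listed as lower, 0 as higher and 49 in neither table. Over all annotated protein-coding genes, 13.2% were listed as lower and 2.30% as higher, so that 0 of 87 as higher is close to that share. The list was chosen by hand, and no test of the difference was made. The ER chaperones and lectins were all listed as lower, 8 of 8, led by *Pdia3*, a disulfide isomerase, at an average log2 CPM of 8.40 and 108 CPM per kb of exon. *Canx*, the lectin chaperone calnexin, had 7.71. The oligosaccharyl transferase, which adds N-glycans, had 6 of 7 genes listed and clathrin 2 of 3, with the heavy chain *Cltc* at 7.96. The Golgi matrix and tethers had 3 of 20 listed, near the share over all protein-coding genes. None of the 8 *Cog* or 6 *Trappc* genes of the list was in either table. Of the unfolded protein response genes 3 of 8 were listed, *Atf4* at 6.23, *Ern1* at 7.43 and *Mbtps1* at 6.52, whereas *Xbp1* and *Atf6* were in neither table. The median level of the 38 genes was 17.3 CPM per kb of exon, against 14.3 for the 96 lower members. These medians were not compared per kb of coding sequence, so their order may depend on the length used.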

How the data were processed

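For the RNA libraries, alignment by the authors used STAR and the GRCm39 genome, featureCounts assigned reads to genes of Ensembl release 104, and edgeR gave the comparison. The submitters' processing notes also name mm10. Tool versions and the library normalization are not given in the sources used here. The deposited tables give, per the file headers, an average log2 CPM over the libraries of the fit, and the authors' own fold changes, likelihood ratios, p-values and FDR, which were not used. They hold no TPM despite their names. The number of unused columns of per-sample values is 0. The planned limma test on individual libraries could therefore not be run, and depth and replicate error are unknown.

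Members and lists were chosen with earlier results of these data known. CPM is 2 to the power of the deposited value. Exonic length (union of exons) and span were taken from GENCODE M21 on GRCm38 by Ensembl identifier (3437 of 3439 listed genes, 99 of 99 members), coding length from RefSeq (longest protein, by symbol), promoters from RefSeq GRCm38.p6 by symbol. Annotation and counting thus used different releases. Members without a promoter entry were *Ap1m1*, *Ap3s1*, *Arf6*, *Arfgef1*, *Arl6ip5*, *Rab11fip1*, *Rab2a*, *Rab37*, *Rab4a*, *Sec11c*, *Sec61a1*, *Snx2*, *Spcs3*, *Tmed2*, *Tmed7*, *Vps28*, *Vps35*, *Vps37a*, *Vps37b* and *Vps72*. A gene with several starts held a motif if any window did, and GC was read from the first window. The rule for named genes took the higher members, the highest and lowest of each role and the 10 highest per kb, and all other listed members are named by role as well. The unions and the motif search were tested on simulated data. Python 3.11.15, pandas 2.3.3 and matplotlib 3.10.9 were used.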

Additional observations from a re-analysis of the deposited data

How the results depend on the processing

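With an average log2 CPM of at least 6 in place of the tables' floor, 52 of the 96 lower members remained listed, and the others lay between the floor and that level. Per kb of coding sequence in place of exon the members' median was 59.6 CPM, because coding sequence is shorter. Leaving out symbols that only resemble trafficking genes gave 92 lower members and a median average log2 CPM of 6.08, leaving out the 5 highest gave 6.04, and counting all annotated genes gave a listed share of 32.4%, each close to the main value. The motif shares in the 200 bases before the start stood at 2.63% for TGACGTGG, 17.1% for the E-box, 9.21% for the ETS motif, 3.95% for the GATA motif and 5.26% for the YY1 motif, which moved most. The alternatives planned for values of single libraries (pseudocount, filter, leaving out a library, replicate block) were not run. No paired analysis was possible because no column gives the level in an individual library.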
